A study of Mus musculus with 4 samples.

Results

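The genes described here encode the mitochondrial respiratory chain and the ATP synthase, the machinery that moves electrons from NADH and succinate to oxygen and uses the resulting proton gradient to make ATP. Members were taken by symbol: names starting with Nduf, Uqcr, Atp5 or Cox4 to Cox8, the succinate dehydrogenase genes Sdha, Sdhb, Sdhc and Sdhd, cytochrome c (Cycs), and mt-Nd, mt-Co, mt-Cytb and mt-Atp, without names ending in -ps. This gave 106 of the 27998 genes counted in every library, 13 of them encoded by the mitochondrial genome and 93 by the nucleus. Of the nuclear members, 84 are subunits or cytochrome c and 9 are assembly factors or factors related to the ATP synthase by name.

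The cells came from livers of male wild-type C57BL/6 mice, bought at 8 weeks of age and then kept for 6 weeks on a normal control diet (NCD) or on a diet without methionine and choline (MCD), which is used in mice to produce fatty liver with inflammation. No group carried a transgene, a deletion or a drug. Each diet had 2 droplet single-cell libraries made with a 3′ capture kit that counts unique molecular identifiers (UMIs), and no label says whether a library held 1 mouse or a pool, so p-values measure only the spread between these libraries, which may be technical. Cells had been sorted as live, CD45 positive, Ly6G negative and intermediate for CD11b. The sample labels call the F4/80 level of the sort high, whereas the series design calls it low.

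Complex I (NADH dehydrogenase), complex III (cytochrome bc1), complex IV (cytochrome c oxidase) and complex V (ATP synthase) are built from subunits of both genomes, and complex II (succinate dehydrogenase) from nuclear subunits alone. The mitochondrial genome is transcribed as long precursors from both strands, which are cut into mostly leaderless mRNAs. Each nuclear gene has its own promoter, and its product is imported. In macrophages the chain supports oxidative metabolism and also yields reactive oxygen species, and its use is known to differ between inflammatory and resting states.

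Depth differed strongly between the diets. The libraries held 7518597 and 7428431 UMIs on NCD and 32975974 and 37772284 on MCD, in 2783 and 2699 against 3349 and 3475 barcodes. Cells were retained where 200 or more genes were detected and mitochondrial UMIs did not pass 10%. This left 1735, 1786, 2950 and 3138 cells, in the order NCD replicates 1 and 2, MCD replicates 1 and 2, which is used throughout. Any pair of libraries shared 4 to 12 barcodes. Comparisons centre on the union of 3 classes of monocytes and macrophages named by marker genes: Ly6Chi monocyte-like, Ly6Clo monocyte-like and lipid-associated macrophage-like cells. It held 600, 643, 1283 and 1425 cells with a median of 1943, 2004, 13545 and 12953 UMIs. The sort's marker genes were present in the union (Ptprc at 1214, 1344, 1001 and 970.1 CPM, that is UMI counts scaled to a common library total, and Adgre1, which encodes F4/80, at 132, 136, 118 and 122). Kupffer cell markers summed to 15 to 24.1 CPM. Cluster 10, with 424 NCD cells and the Kupffer cell list as its best match, stayed unnamed and is outside the union. Markers of other cells differed between the libraries: the hepatocyte list of 12 genes summed to 142, 115, 220.5 and 239 CPM and the neutrophil list of 11 genes to 2052, 171, 213 and 247, so that NCD replicate 1 stood apart. Without that library all 13 mitochondrially encoded genes and 34 nuclear members were lower and 8 nuclear members higher, against 13, 44 and 12 with it. Ribosomal protein genes took 28.7%, 27.5%, 18.1% and 18% of UMIs. The part of these differences in the results below was not tested.

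All 13 mitochondrially encoded genes fell on MCD in monocytes and macrophages. Their log2 fold changes, MCD over NCD, ran from -2.13 in mt-Nd6 to -1.10 in mt-Atp6, with a median of -1.66. mt-Nd6 had the fewest UMIs of the 13, at 55 and 56 on NCD and 214 and 219 on MCD. Over all 10890 genes tested, 17.4% were called lower and 18.8% higher, at an adjusted p under 0.05 in edgeR's quasi-likelihood test with Benjamini-Hochberg adjustment, and the median log2 fold change was 0.03. DESeq2 also called 13 of 13 lower, and in edgeR no mitochondrially encoded gene was higher at an unadjusted p under 0.05. Falls were common among abundant transcripts: of the 89 tested genes at a mean of 2000 CPM or more, 79.8% were lower and 13.5% higher in edgeR (median -1.04). These 89 include the mitochondrially encoded genes at that level.

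The complex I subunits mt-Nd1 to mt-Nd6, which form the proton-pumping membrane arm, included the largest falls. CPM values after TMM scaling for mt-Nd2 were 3854 and 3677 on NCD and 964 and 972 on MCD, a log2 fold change of -1.96 ± 0.08 (SE, adjusted p = 1.63e-06). For mt-Nd6 they were 46.0 and 43.2 against 10.3 and 10.1 (-2.13 ± 0.16, adjusted p = 3.09e-05), and for mt-Nd4l 476 and 496 against 124 and 115 (-2.02 ± 0.10, adjusted p = 3.43e-06). In each of these genes both MCD libraries lay at about the same level, far under both NCD libraries. mt-Nd3 was at 2788, 2442, 718 and 643 CPM and mt-Nd5 at 1051, 991, 278 and 276, with log2 fold changes of -1.94 and -1.88. mt-Nd1, at 4555, 4171, 1519 and 1349, and mt-Nd4, at 4525, 4415, 1662 and 1549, had smaller falls of -1.61 and -1.48.

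mt-Cytb, the haem-carrying core of complex III, was at 7204 and 6728 CPM on NCD and 1956 and 1767 on MCD (log2 fold change -1.90 ± 0.08, adjusted p = 2.42e-06). The catalytic core of cytochrome c oxidase showed the same direction. mt-Co1, which holds the site of oxygen reduction, was at 15732, 15649, 6639 and 6555 (-1.25 ± 0.06, adjusted p = 3.97e-06), mt-Co2, which receives electrons from cytochrome c, at 16059.7, 14578, 5199 and 4817 (-1.61), and mt-Co3 at 19652, 17506, 6031 and 5755 (-1.66). The ATP synthase genes had 2 of the 3 smallest falls: mt-Atp6, which forms the proton channel, was at 13007, 11964, 6112 and 5554 (-1.10 ± 0.08, adjusted p = 2.08e-05), and mt-Atp8 at 201, 177, 72.5 and 74.1 (-1.36). In all 13 genes both MCD values lay under both NCD values.

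**Figure D1:**
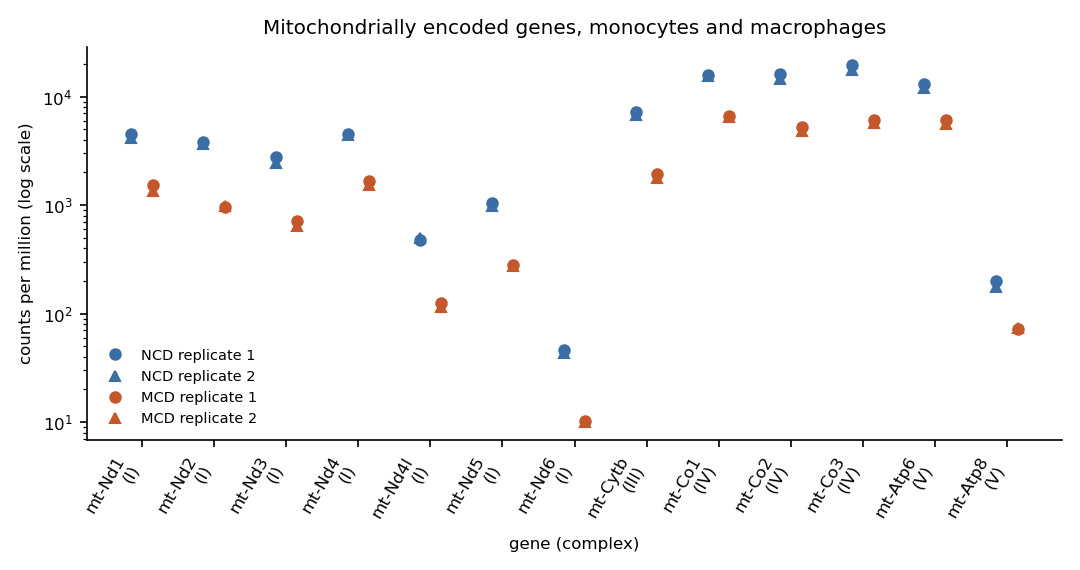
CPM after TMM scaling (log axis) of the 13 mitochondrially encoded genes in monocytes and macrophages, with one point per library and the complex of each gene in parentheses. In every gene the 2 MCD points lie under the 2 NCD points, from mt-Atp6 (log2 fold change -1.10) to mt-Nd6 (-2.13).

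Some of these genes share bases, so their counts are not independent. In the GENCODE M21 annotation of GRCm38 the end of mt-Atp8 and the start of mt-Atp6 overlap by 43 bases, the end of mt-Nd4l and the start of mt-Nd4 by 7, and the end of mt-Nd5 and the end of mt-Nd6, which lies on the other strand, by 14. The overlaps are shown because UMIs that fall in them cannot be assigned to a single gene from sequence, and the sources do not state how strand was used in counting. All are written along the strand of the first gene, with the first and last 3 bases in capitals. In the first and the second overlap these are the start codon of the downstream gene and the stop codon of the upstream gene; in the third they are the stop codon of mt-Nd6, read on the other strand, and that of mt-Nd5.
mt-Atp8 and mt-Atp6, chrM:7927-7969: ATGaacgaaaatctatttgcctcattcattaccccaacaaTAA
mt-Nd4l and mt-Nd4, chrM:10167-10173: ATGcTAA
mt-Nd5 and mt-Nd6, chrM:13552-13565: TTAatctcgagTAA
On chrM, mt-Atp8 is annotated at 7766 to 7969 and mt-Atp6 at 7927 to 8607. mt-Nd4l is at 9877 to 10173 and mt-Nd4 at 10167 to 11544. mt-Nd5 is at 11742 to 13565 and mt-Nd6 at 13552 to 14070. mt-Co3 starts at 8607, the last base of mt-Atp6, so these genes share that base as well. That overlap is not among those shown.

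The make-up of the mitochondrial UMIs also differed between the diets. mt-Co1 made up 17.6% and 18.9% of the UMIs of the 13 genes on NCD and 21.2% and 22.3% on MCD, and mt-Atp6 14.6% and 14.4% against 19.5% and 18.9%. Smaller parts on MCD were taken by mt-Cytb (8.08% and 8.12% against 6.25% and 6.00%), mt-Nd2 (4.32% and 4.44% against 3.08% and 3.30%) and mt-Nd3 (3.13% and 2.95% against 2.30% and 2.19%). Only mt-Nd4, at 5.08%, 5.33%, 5.31% and 5.26%, had overlapping diets. Before the limit on mitochondrial UMIs per barcode, over all barcodes with at least 200 genes, mt-Co1 was at 16.7% and 18.2% against 21.1% and 21.9%, and mt-Nd2 at 5.22% and 5.38% against 3.27% and 3.46%.

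As a share of all UMIs of the union, the mitochondrially encoded members took 7.58% and 7.33% on NCD and 3.67% and 3.31% on MCD, and the nuclear members 2.03% and 1.98% against 1.74% and 1.63%. The mean mitochondrial share was 7.46% ± 0.18 (SD, n = 2) on NCD and 3.49% ± 0.25 on MCD, and the log2 ratio of mitochondrial to nuclear UMIs fell from 1.90 and 1.88 to 1.08 and 1.03. With 2 libraries against 2, the exact two-sided permutation test cannot go below p = 0.33, which each of these 3 differences reached. Per cell the counts went the other way with depth: 178 and 167 mitochondrial UMIs per cell on NCD and 508 and 449 on MCD, and 47.5 and 45.2 nuclear UMIs against 241 and 220.5. A share cannot tell less of these RNAs from more of others.

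The limit of 10% mitochondrial UMIs acts on these genes directly. It removed 37.1% and 33.1% of NCD barcodes with at least 200 genes, and 8.39% and 7.41% of MCD barcodes. Without the limit the mitochondrial share of the union was 9.10% and 8.72% against 3.83% and 3.48%, a wider gap than with it, and all 13 genes were again called lower, with a median log2 fold change of -1.82. A limit of 5% left 35 and 54 NCD cells of the union, against 1122 and 1323 MCD cells, and 2 of the 13 genes were then called lower, with a median of -0.43.

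Cell depth moved with diet. A window of depth narrowed the gap without closing it: among union cells of 1000 to 5000 UMIs (570, 618, 70 and 59 cells) the median was still 1910 and 1990 UMIs on NCD and 4306.5 and 3836 on MCD. In this window the mitochondrial share was 7.58% and 7.27% against 4.93% and 4.54%, and all 13 genes were called lower (median -1.56). There the nuclear share was 2.07% and 2.02% against 1.35% and 1.26%. The log2 ratio of mitochondrial to nuclear UMIs there was 1.87 and 1.85 on NCD and 1.87 and 1.85 on MCD, and the diets overlapped (difference 0.003, exact two-sided permutation p = 0.667). Within a library, Ly6Chi-like cells above the median depth had a lower mitochondrial share than those below it, by log2 ratios of -0.09 in both NCD libraries and -0.10 and -0.12 in the MCD libraries. In Ly6Clo-like cells these ratios were 0.01, 0.04, -0.34 and -0.19.

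Nuclear members did not move in 1 direction. Of 93, 87 passed the filter on low counts and were tested: 44 were lower, 12 higher and 31 past neither, with a median log2 fold change of -0.33. With scaling by library totals in place of TMM, the median of all genes moved from 0.03 to 0.44 and the nuclear members split into 27 higher and 24 lower. The direction of the nuclear set therefore depended on the scaling, while the nuclear median minus that of all genes was -0.37 with TMM and -0.36 with library totals. That difference moved with other settings, to -0.09 with the length trend removed and -1.07 in cells of 1000 to 5000 UMIs. For the mitochondrially encoded genes it was -1.69 with both scalings.

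**Figure D2:**
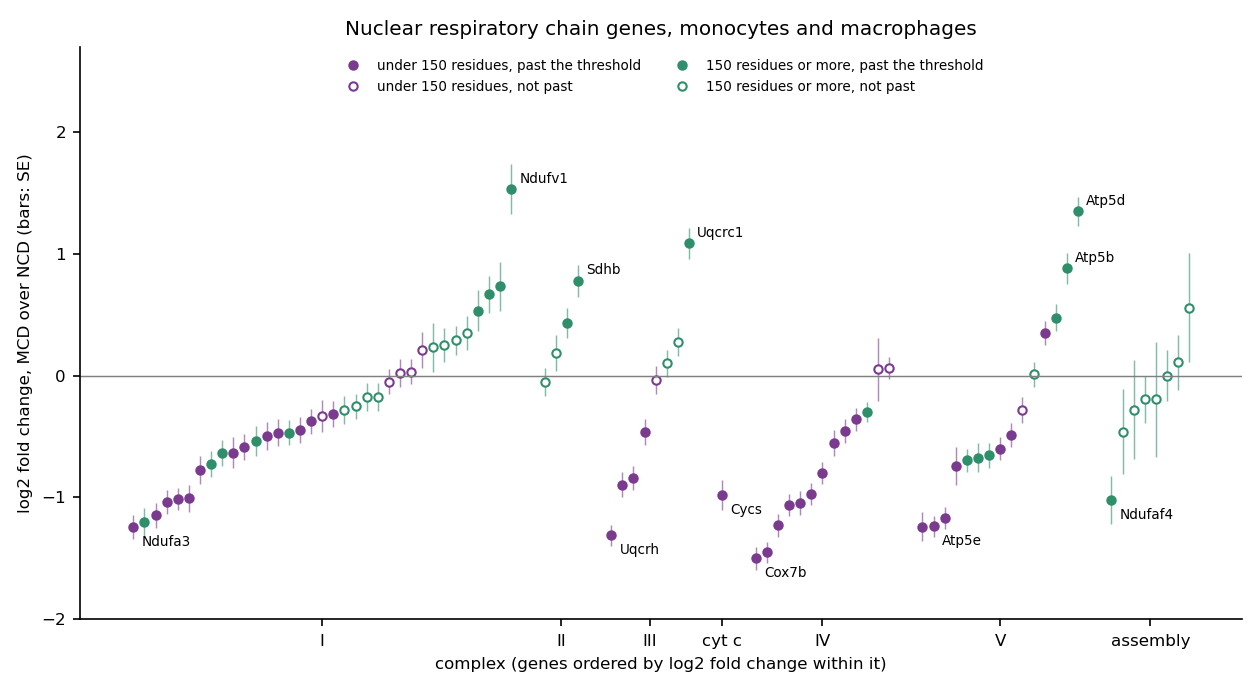
Log2 fold change, MCD over NCD, with its standard error for the nuclear members in monocytes and macrophages, ordered within each complex; purple marks proteins under 150 residues, green longer ones, and filled points passed the adjusted p of 0.05. The rises of Ndufv1 (1.53) and Atp5d (1.35) are of longer proteins and the falls of Cox7b (-1.50) and Uqcrh (-1.31) of short ones; Cox7a1 and Atp5s, with few UMIs, and 1 other member are not drawn.

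In complex I, nuclear core subunits carry electrons from NADH towards ubiquinone. Ndufv1, which binds NADH and flavin mononucleotide, rose from 13.4 and 16.2 CPM on NCD to 46.2 and 39.8 on MCD, a log2 fold change of 1.53 ± 0.20 (adjusted p = 0.000555), with both MCD libraries far above both NCD libraries. Ndufs8, an iron-sulfur subunit, rose from 72.8 and 49.4 to 93.2 and 83.0 (0.53, adjusted p = 0.0358). Ndufs1, which carries further iron-sulfur clusters, was at 26.8, 18.5, 27.5 and 25.4, with overlapping diets. Of the 7 nuclear core subunits edgeR called 3 higher, DESeq2 2 and edgeR with library totals 6. No core subunit was lower, also at an unadjusted p under 0.05 or in DESeq2.

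The accessory subunits of complex I, which surround the core and stabilise it, went mostly the other way: of 29, 18 were lower and 2 higher, with a median of -0.47. Ndufa3, a small membrane-arm subunit, had the largest fall, from 412 and 384 CPM to 166 and 169.5 (-1.25 ± 0.10, adjusted p = 3.42e-05). Ndufv3 fell by 1.20 on the log2 scale, from 185 and 157 to 76.5 and 72.2. Its annotated principal product has 468 residues, so it was counted among the longer proteins. Its annotated transcripts run from 493 to 2021 bases, and counts per gene do not tell which of them was present. Ndufa9 and Ndufa10, both over 300 residues long, were the 2 that rose (0.73 and 0.67).

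Complex II has no mitochondrially encoded subunit and none of its genes was lower, also at an unadjusted p under 0.05 or in DESeq2. Sdhb, the iron-sulfur subunit, rose from 61.9 and 51.7 CPM to 101 and 94.2 (0.78 ± 0.13, adjusted p = 0.00203), and Sdhd, a membrane anchor, from 59.4 and 60.2 to 85.2 and 76.3 (0.43, adjusted p = 0.0273). Sdha, the flavoprotein, was at 72.8, 77.2, 71.3 and 73.5, with overlapping diets, and Sdhc did not pass. DESeq2 called 1 of the 4 genes higher, and edgeR with library totals called all 4 higher, at log2 fold changes of 0.35 to 1.19, so the split within the complex depended on tool and scaling. Sdhb lost its call with the trend on GC content removed (0.25, adjusted p = 0.186).

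In complex III a large core subunit was higher and most of the small subunits were lower. Uqcrc1, a large core subunit that faces the matrix, was at 42.7, 44.0, 94.8 and 89.5 CPM (1.09 ± 0.13, adjusted p = 0.000283). Uqcrc2 and Uqcrfs1, the other core subunits of the complex among the nuclear members, did not pass. Uqcrh, the small acidic hinge protein that contacts cytochrome c1, was at 1281 and 1239 on NCD and at 499 and 517 on MCD (-1.31 ± 0.09, adjusted p = 1.21e-05). Uqcrb, Uqcrq and Uqcr10 were also lower, at -0.90, -0.84 and -0.46, while Uqcr11, with 56 residues the shortest of the complex, was at 152, 181, 164 and 162, with overlapping diets. Uqcrc1 lost its call with the GC trend removed (0.27, adjusted p = 0.158). Cytochrome c itself, the mobile carrier between complexes III and IV, fell from 268 and 276 to 124 and 151 (-0.98 ± 0.12, adjusted p = 0.000418).

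In cytochrome c oxidase, of 20 nuclear members 14 were tested, 11 were lower and none was higher, also at an unadjusted p under 0.05 or in DESeq2, although library totals gave 7 lower and 1 higher. Cox7b was at 563 and 547 CPM on NCD and 194 and 199 on MCD (-1.50 ± 0.09, adjusted p = 1.03e-05), and Cox7c at 1303, 1251, 472 and 463 (-1.45). Both are single-span membrane proteins, and in both the diets were far apart. Cox8a was at 1295, 1178, 637 and 623 (-0.97), Cox6b1, which faces the intermembrane space, at 604, 569, 343 and 330.0 (-0.80), and Ndufa4, once assigned to complex I and now to complex IV, at 438, 474, 229 and 214 (-1.04). Cox4i1, which binds the adenine nucleotides that regulate the complex, was at 1015, 986, 829.8 and 798 (-0.30 ± 0.08, adjusted p = 0.0227), and this fall turned to 0.11 with library totals and 0.01 with the length trend removed.

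Several subunits of the complex have tissue-specific isoforms, and most of these were at or near 0. Cox6a2, the heart and muscle form, had no UMI in NCD cells of the union and 17 and 2 in MCD cells, and Cox4i2, a lung form, had none against 6 and 1. A count of 0 allows up to 3 UMIs, or 2.14 and 2.05 CPM in the NCD libraries. Cox7b2, Cox8b, Cox8c and Ndufa4l2 had none in any library, which in the MCD libraries allows at most 0.169 and 0.155 CPM. Cox7a1, the muscle and brown fat form, had 2, 0, 10 and 23 UMIs. Cox7a2 fell from 536 and 526 to 227 and 226 (-1.23), whereas Cox7a2l, a relative that acts in joining complexes III and IV, was at 378, 383, 394 and 401 (0.06 ± 0.09, adjusted p = 0.632). Cox6a1 was lower, at 265, 259, 187 and 195 (-0.46), and Cox6b2, the testis form, was at 11.7, 11.6, 11 and 13.1.

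The ATP synthase split within its catalytic head. Of the 5 subunits of F1, the beta subunit Atp5b, which carries the catalytic sites, was at 181, 141, 303 and 289 CPM (0.88 ± 0.13, adjusted p = 0.000923), the alpha subunit Atp5a1 at 188, 209.9, 289 and 264 (0.48), and the delta subunit Atp5d at 98.8, 84.1, 230.0 and 235 (1.35 ± 0.12, adjusted p = 6.11e-05), all 3 higher on MCD without overlap. The gamma subunit of the central stalk, Atp5c1, fell from 503 and 442 to 294 and 306 (-0.65), and the epsilon subunit Atp5e, a protein of 52 residues, from 1438 and 1342 to 596 and 583 (-1.24 ± 0.09, adjusted p = 1.79e-05). The 3 genes for the c-ring, which encode the same mature protein with different import sequences, had different falls: Atp5g2 was at 814, 651, 320.4 and 299 (-1.24), Atp5g1 at 293, 208, 158 and 141 (-0.74) and Atp5g3 at 184, 187, 161 and 144 (-0.28, adjusted p = 0.069). Of 4 peripheral stalk subunits 3 were lower and Atp5f1 was at 275, 245, 260 and 263, with overlapping diets. Atp5l fell by 1.17 on the log2 scale, and Atp5j2, at 186, 188, 234 and 242, was the 1 short subunit that rose (0.35, adjusted p = 0.0245).

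Assembly factors, which help to build the complexes but do not stay in them, had fewer UMIs than most subunits, and 1 of 9 passed. Ndufaf4, needed for the assembly of complex I, was at 24.3 and 22.4 CPM on NCD and 11 and 11.9 on MCD (-1.02 ± 0.20, adjusted p = 0.0044). None was higher, also at an unadjusted p under 0.05 or in DESeq2. Cox5b and Atp5h each had a near-identical gene copy in the count tables, Gm11273 and Gm10250, so UMIs of these 2 members could have been split. The transcript end of the assembly factor Ndufaf2 matched 8 other counted genes by the same rule, and its level, at 13.4, 6.17, 7.25 and 6.80 CPM with overlapping diets, is likewise uncertain.

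Promoter sequence was examined for the nuclear members because respiratory genes are known to share sites for NRF1 and for ETS-family factors such as GABP. The RefSeq promoter table of GRCm38.p6 matched 74 of the 93 nuclear members by symbol. In the 250 bases before the start, an NRF1-type motif, searched on both strands and seen in the Ndufaf4 window below, was found in 14 of 74 members (18.9%) and in 4.23% of 27018 genes of the table, and the ETS-type motif CCGGAAG, also on both strands, in 13 of 74 (17.6%) against 7.83%. A YY1-type motif was in none of the 74 and in 0.248% of all. Among matched members called lower, 11 of 38 held the NRF1-type and 8 of 38 the ETS-type motif, and among those called higher 1 of 10 each. A match describes letters only. The 4 windows below are those of members called lower that held a motif and had at most 10 bases in annotated exons; each runs 5′ to 3′ on the gene's strand, with motif matches in capitals.
Atp5e, chr2:174464102-174464351, minus strand: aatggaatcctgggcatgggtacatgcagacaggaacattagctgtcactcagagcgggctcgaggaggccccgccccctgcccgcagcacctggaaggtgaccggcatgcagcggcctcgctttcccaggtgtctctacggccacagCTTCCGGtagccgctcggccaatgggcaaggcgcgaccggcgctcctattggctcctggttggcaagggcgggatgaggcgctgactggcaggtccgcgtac
Atp5l, chr9:44920743-44920992, minus strand: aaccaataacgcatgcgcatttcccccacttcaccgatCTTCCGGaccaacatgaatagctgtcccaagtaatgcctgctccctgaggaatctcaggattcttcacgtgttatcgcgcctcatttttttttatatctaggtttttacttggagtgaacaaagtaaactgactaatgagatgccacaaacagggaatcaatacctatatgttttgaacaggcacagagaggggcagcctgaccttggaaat
Ndufaf4, chr4:24897833-24898082, plus strand: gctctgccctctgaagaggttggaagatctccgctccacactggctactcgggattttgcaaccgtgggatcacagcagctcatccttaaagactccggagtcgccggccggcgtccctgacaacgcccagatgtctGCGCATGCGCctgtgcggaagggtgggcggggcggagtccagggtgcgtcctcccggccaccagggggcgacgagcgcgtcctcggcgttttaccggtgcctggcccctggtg
Ndufb6, chr4:40279422-40279671, minus strand: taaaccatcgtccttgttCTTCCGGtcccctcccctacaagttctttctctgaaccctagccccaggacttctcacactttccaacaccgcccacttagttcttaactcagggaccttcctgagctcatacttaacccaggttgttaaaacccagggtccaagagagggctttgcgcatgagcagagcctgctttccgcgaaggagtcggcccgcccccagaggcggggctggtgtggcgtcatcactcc

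The nuclear subunits divided by protein size. Of 50 subunits under 150 residues (cytochrome c included) 45 were tested: 34 were lower and 1 higher, with a median log2 fold change of -0.60. Of 34 longer subunits 33 were tested: 9 were lower and 11 higher, with a median of 0.19. With library totals the short subunits had 20 lower and 7 higher and the longer ones 3 lower and 20 higher, and the medians minus that of all genes were -0.63 and 0.15 under both scalings. The longer subunits' difference was near 0 or turned under other settings: -0.04 without NCD replicate 2, -0.04 at the 5% limit on mitochondrial UMIs, -0.0081 with no filter on low counts and -0.61 in cells of 1000 to 5000 UMIs. For the short subunits it stayed negative in every setting run, from -1.47 to -0.32. In cells of 1000 to 5000 UMIs, 40 of 43 short subunits were lower (median -1.45), as were 14 of 33 longer ones, with 1 higher (median -0.59). Across 78 tested subunits the log2 fold change and coding length had a Spearman rho of 0.61, and across 10419 genes a rho of 0.06. With mean CPM in place of coding length the rho was -0.66 across the 78 subunits and -0.05 across 10890 genes. Which of size and level the fold change follows was not tested. Genes of the same libraries are not independent, and no test was made.

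**Figure D3:**
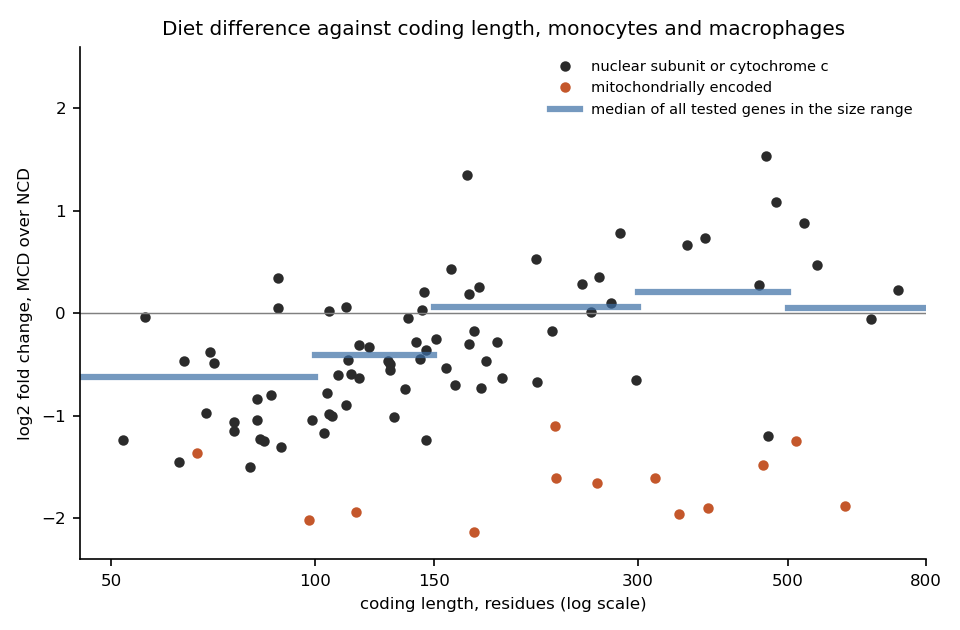
Log2 fold change in monocytes and macrophages against coding length (log axis), with a point for each tested subunit and blue bars for the median of all tested genes in 5 ranges of coding length. Nuclear subunits under 150 residues lie mostly under 0, as do the all-gene medians there (-0.62 under 100 residues and -0.41 from 100 to 150), and the mitochondrially encoded genes (orange) lie under the bars at every length; Cox7a1, with few UMIs, and 1 other member are not drawn.

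Short coding length went with a fall across the transcriptome too. Of 249 tested genes under 100 residues 55% were lower and 6.83% higher, with a median of -0.62, and of 574 genes from 100 to 150 residues 41.6% were lower, with a median of -0.41. Both counts include the subunits themselves. Of subunits in the same ranges, 16 of 20 (median -1.01) and 18 of 25 (median -0.49) were lower. From 300 to 500 residues 25.3% of all genes were higher and 13.3% lower (median 0.21), and 5 of 7 subunits were higher and 1 lower (median 0.73). When level was held as well, the subunits were close to other genes in 1 of 4 ranges and lower in the others. Among genes of under 150 residues at a mean of 100 to 500 CPM, the median was -0.58 over 179 genes and -0.57 over the 30 subunits among them. At 500 to 2000 CPM it was -0.82 over 50 genes and -1.24 over 7 subunits, all of them lower. From 150 residues up it was -0.05 over 813 genes and -0.28 over 13 subunits at 100 to 500 CPM, and 0.17 over 129 genes and -0.50 over 2 subunits at 500 to 2000 CPM.

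GC content ran with the fold change over all genes. For GC of the last 500 transcript bases the Spearman rho was 0.38 across 10867 genes and 0.20 across the 78 subunits, and the all-gene median rose from -0.27 under 40% GC to 0.79 at 55% and above. The transcript ends of the mitochondrially encoded genes had 31.9% to 41.1% GC. With a loess trend on GC content removed, all 13 stayed lower (median -1.53), 39 of 45 short subunits were lower, and the longer ones had 9 higher and 12 lower. With trends on GC and transcript length both removed, 12 of the 13 were lower and mt-Atp8, with the shortest annotated transcript of the 13 at 204 bases, was higher (0.72, adjusted p = 0.00151). The short subunits then had 26 lower and 1 higher, and the longer ones 10 lower and 12 higher. Atp5d kept a rise of 0.69 under both trends, while Uqcrc1 did not pass (0.09, adjusted p = 0.649).

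Cell classes were compared separately because the mix of classes differed between diets: the lipid-associated macrophage-like class held 3 and 1 NCD cells and 380 and 286 MCD cells. Without that class, 45 of 85 nuclear members were lower and 12 higher, and all 13 mitochondrially encoded genes were lower (median -1.74). Each other class is also made of different clusters on the 2 diets, such as cluster 2 on NCD and cluster 0 on MCD for Ly6Chi-like cells and clusters 9 and 6 for Ly6Clo-like cells. The class comparisons draw on the same 4 libraries and are not independent of each other.

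In Ly6Chi-like cells (393, 406, 600 and 848 cells), the inflammatory monocytes that enter injured liver, 49 of 85 tested nuclear members were lower and 8 higher, where 13.5% and 13.6% of 9754 genes were called. All 13 mitochondrially encoded genes were lower, with a median of -1.87. Ndufv1 had a log2 fold change of 1.67 and Cox7b of -1.86. In Ly6Clo-like cells (204, 236, 303 and 291 cells), which patrol vessel walls, 25 of 83 nuclear members were lower and 9 higher, where 13% and 14.2% of 8737 genes were called, and all 13 mitochondrially encoded genes were lower (median -1.72). Atp5d, at 1.69, led the rises there and Cox7c, at -1.25, the nuclear falls. Without NCD replicate 1 or without NCD replicate 2 the edgeR fit of Ly6Clo-like cells called no member, and no other tool was run there. The log2 fold changes of the 13 mitochondrially encoded genes then ran from -2.06 to -0.955 and from -2.22 to -1.03. The nuclear members had values of both signs in each of these fits. In Ly6Chi-like cells the number of higher nuclear members fell to 4 without NCD replicate 2.

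In the other classes that both diets held, calls of mitochondrially encoded genes were all lower. Nuclear calls went both ways in liver endothelial-like and migratory dendritic-like cells and were nearly all lower in the remaining pair. In liver endothelial-like cells (clusters 8 and 15 on NCD, mainly 12 and 16 on MCD) all 13 mitochondrially encoded genes were lower with a median of -1.04, and 17 of 82 nuclear members were lower and 13 higher, where 13.5% and 16.3% of 9506 genes were called. In NK and innate lymphoid-like cells (clusters 14 and 19) 11 of 12 were lower (median -1.26), with 20 of 73 nuclear members lower and 1 higher, against 8.64% and 5.79% of 3300 genes. In interferon-activated-like cells (clusters 21 and 17) 12 of 13 were lower (median -1.73), with 24 of 77 nuclear members lower and 1 higher, against 6.54% and 4.95% of 4386 genes. In migratory dendritic-like cells (clusters 20 and 11) 12 of 13 were lower (median -1.48), with 11 of 78 nuclear members lower and 7 higher, against 4.27% and 4.9% of 5430 genes. Cox7b, side by side in these 4 classes, had log2 fold changes of -0.99, -1.27, -1.62 and -1.21, and Atp5e of -0.60, -1.38, -1.28 and -0.99. Over all retained cells, with no class used, all 13 mitochondrially encoded genes were lower (median -1.44), and 27 of 87 nuclear members were lower and 23 higher, against 22.9% and 26.1% of 12740 genes.

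**Figure D4:**
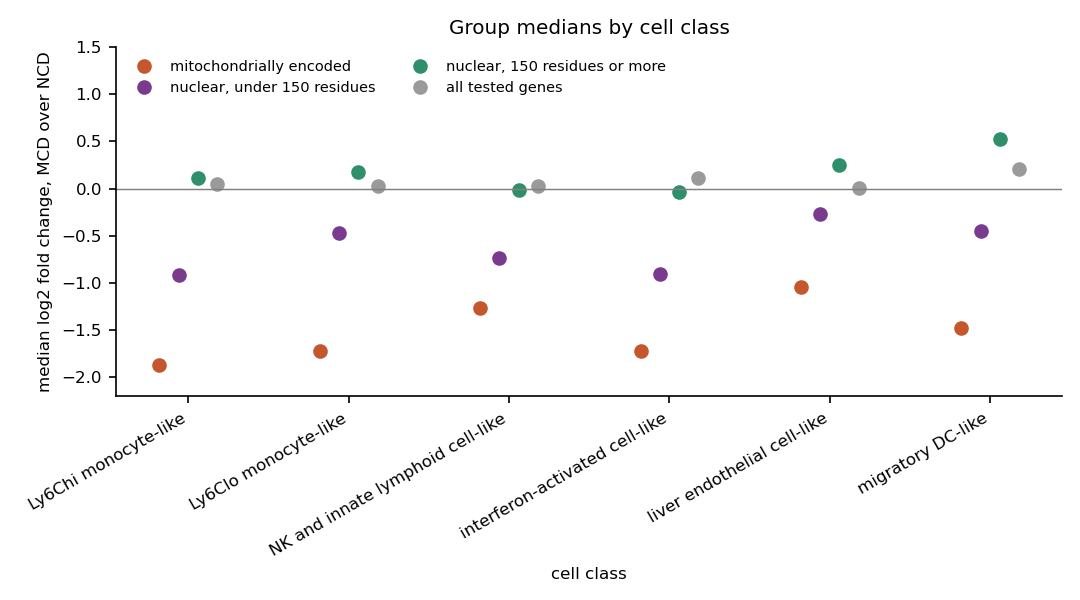
Median log2 fold change, MCD over NCD, of the mitochondrially encoded genes, of the short and the longer nuclear subunits and of all tested genes in the 6 classes held by both diets. In each class the mitochondrially encoded median is lowest (-1.87 to -1.04), the short subunits come next (-0.92 to -0.27) and the longer subunits lie between -0.04 and 0.53.

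The counts in these classes moved when single libraries were left out. For liver endothelial-like cells the higher nuclear members numbered 8 without MCD replicate 2, and the lower ones 10 without NCD replicate 2, MCD replicate 1 or MCD replicate 2. In NK and innate lymphoid-like cells 13 were lower without MCD replicate 1, and 2 were higher without NCD replicate 1 or MCD replicate 2. Without NCD replicate 2 edgeR called 0 higher, 4 at an unadjusted p under 0.05. Interferon-activated-like cells had 11 lower without NCD replicate 1 and 12 without NCD replicate 2, and 2 higher without MCD replicate 2. Migratory dendritic-like cells had 7 lower without NCD replicate 1 or MCD replicate 2, and 3 and 4 higher.

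Shares of UMIs by class were set against each other within the limit of 10% mitochondrial UMIs, which caps the mitochondrial share. On NCD the mitochondrial share lay between 6.59% and 8.02% in all 6 classes, with liver endothelial-like cells at 8.02% and 8.01%, and on MCD between 2.95% and 4.78%, with NK and innate lymphoid-like cells at 4.27% and 4.78% and liver endothelial-like cells at 4.76% and 4.48%. These 2 classes did not differ beyond their spread on MCD. The nuclear share on NCD was highest in Ly6Chi-like cells, at 2.31% and 2.25%, and lowest in liver endothelial-like cells, at 1.44% and 1.49%. On MCD Ly6Chi-like cells were at 1.82% and 1.66% and Ly6Clo-like cells at 1.56% and 1.47%. In liver endothelial-like cells, at 1.40% and 1.44% on MCD, the diets' means differed by -0.048 percentage points, with SDs of 0.037 and 0.030 (n = 2 each). Without the limit this class held 530 and 766 NCD cells in place of 221 and 382, and its nuclear share was 1.5% and 1.51% against 1.38% and 1.43%, a difference of -0.101 without overlap. Its mitochondrial share on NCD was then 10.1% and 9.81%, beside 10.5% and 9.10% in NK and innate lymphoid-like and 9.94% and 8.96% in migratory dendritic-like cells, so these classes overlapped and no highest one could be named.

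**Figure D5:**
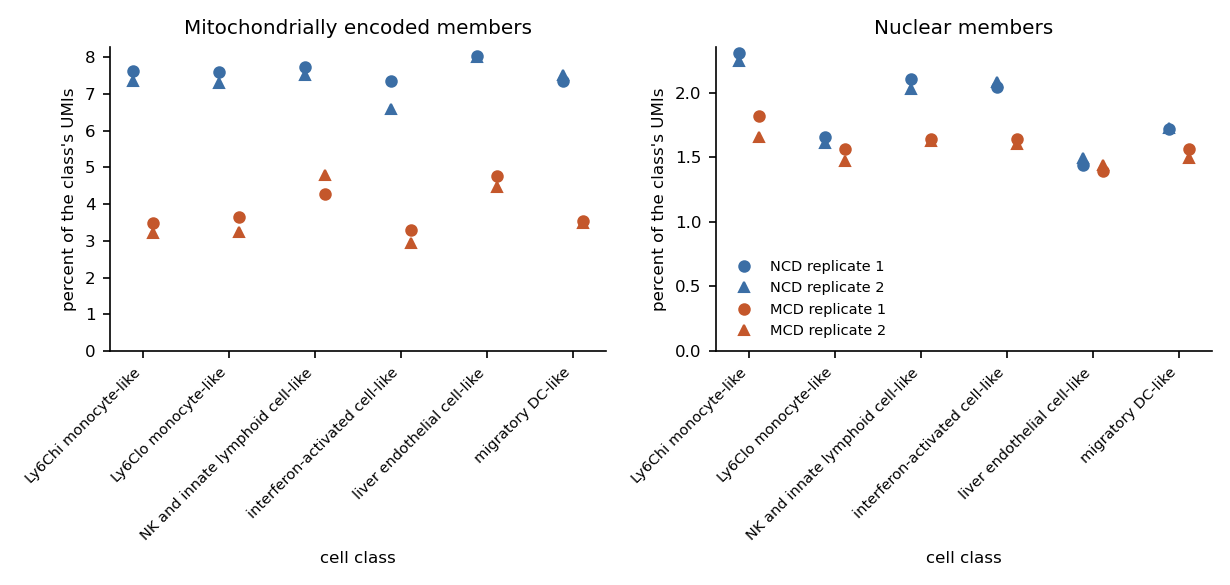
Percent of each class's UMIs from the 13 mitochondrially encoded members (left) and the 93 nuclear members (right), with one point per library. The mitochondrial share is lower in both MCD libraries in every class, while the nuclear share is close between diets in liver endothelial-like cells (1.44% and 1.49% against 1.40% and 1.44%), within the 10% limit.

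The diet difference itself differed between the Ly6Chi-like and Ly6Clo-like cells. In 1 fit over both classes with the library as a block, the class by diet term was past an adjusted p of 0.05 in 34 of 85 nuclear and 4 of 13 mitochondrially encoded members, all with a lower term in Ly6Chi-like cells, where 3.22% of 9211 genes were lower and 1.18% higher. No member had a higher term in edgeR; at an unadjusted p under 0.05 there was 1. Cox8a was at 1616, 1465, 632 and 599.9 CPM in Ly6Chi-like cells and 949.9, 787, 563 and 566 in Ly6Clo-like cells, a term of -0.68 ± 0.10 (adjusted p = 3.72e-06). Atp5l was at 1597, 1434, 574 and 546 against 1052, 931, 566 and 544 (-0.58 ± 0.09, adjusted p = 4.22e-05), and Cox5b at 591, 519, 308 and 276 against 329, 254, 277 and 247 (-0.75 ± 0.12, adjusted p = 5.32e-05). In these 3 genes the classes were apart on NCD and close on MCD by these values. The CPM of each class come from its own fit and TMM scaling, so levels are not on 1 scale between classes. The mitochondrially encoded genes past the threshold were mt-Co1 (-0.41), mt-Co2 (-0.30), mt-Co3 (-0.29) and mt-Atp6 (-0.24). Scaling by library totals left 9 nuclear members with a lower term, and 1 mitochondrially encoded gene lower and 1 higher. Without MCD replicate 1 edgeR called 0 mitochondrially encoded genes with a lower term, 2 at an unadjusted p under 0.05, and without MCD replicate 2 it called 1; no other tool was run there.

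Genes of related mitochondrial pathways were counted from lists written with earlier results of these data known. Of 16 genes of the citrate cycle and pyruvate dehydrogenase, which feed the chain, 6 were higher and 10 did not pass (median 0.24), with Dlst, the succinyl transferase of the 2-oxoglutarate dehydrogenase complex, at 20.9, 13.9, 44.5 and 46.6 CPM (1.40, adjusted p = 0.000755). Of 77 genes of the mitochondrial ribosome, which translates the 13 mitochondrially encoded mRNAs, 24 were lower and 15 higher (median -0.00). Other assembly factors had 8 of 31 lower and 1 higher (median 0.10), with Cox16, a factor for complex IV, at 78.7, 74.9, 25.5 and 23.1 (-1.66, adjusted p = 3.74e-05). Of 14 genes that control mitochondrial gene expression or biogenesis, 3 were lower and 1 higher: the nuclear receptor gene Esrra was at 7.53, 9.26, 25.6 and 25.5 (1.60, adjusted p = 0.000794), and Mterf1a, of the mitochondrial transcription termination factor family, at 16.7, 18.5, 4.66 and 4.92 (-1.88, adjusted p = 0.000725). Of 15 import genes 5 were higher and 5 lower, with the pore-forming Tomm40 at 7.53, 5.40, 33.2 and 28.4 (2.26) and the small Tomm7 at 619, 586, 235 and 233 (-1.36). All are set against 17.4% of genes lower and 18.8% higher.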

How the data were processed

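UMI counts per gene and barcode were deposited by the authors as unnormalised count matrices for 4 libraries; Cell Ranger 3.0.2 is named in the file headers and the mm10 build in the submitters' processing notes. Neither the authors' barcode filters nor the strand setting of counting is stated in the sources. The table of MCD replicate 1 lists 27998 genes, those of the remaining libraries 28692; the 27998 in common were analysed. Gene lengths and mitochondrial coordinates came from the GENCODE M21 annotation (27645 genes matched) and promoters from RefSeq.

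Of 12306 barcodes, 9609 were retained by a minimum of 200 genes and a maximum of 10% mitochondrial UMIs. No doublet caller was run, so doublets remain. Cells of the 4 libraries were clustered together without batch correction, with all members left out of the genes used (2000 variable genes, 30 principal components, 15 neighbours, Leiden resolution 1.0), giving 24 clusters, and a cluster was named from its 50 leading genes by marker lists. Rebuilt names may differ from those of the study. Clusters 1, 4, 5, 7, 10 and 13 stayed unnamed, with 755, 535, 1328 and 1206 of the retained cells, and are in no class and not in the union. No cluster was named C1q macrophage-like, although C1qa, C1qb and C1qc were among the leading genes of cluster 10 on NCD. The same genes were among the leading genes of cluster 3 on MCD, named lipid-associated macrophage-like. Its own list and another each had 3 genes among the 10 leading ones there, a tie allowed between monocyte and macrophage lists. Cells led by C1q genes were thus in the union on MCD, while those of cluster 10 on NCD were not. UMIs were summed per class and library, with at least 20 cells per library in each compared class.

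Sums were fitted with edgeR 4.0.16 (quasi-likelihood F test, TMM, filterByExpr, Benjamini-Hochberg adjustment over all tested genes, threshold 0.05) in R 4.3.3, with DESeq2 1.42.0 as an alternative. A standard error is the log2 fold change divided by the square root of F. Alternatives covered the scaling, thinning, the mitochondrial limit, cell depth, class mix, GC content and length trends (loess span 0.5, last 500 transcript bases) and each library left out. A copy was a match of at least 95% over 90 bases. On simulated counts for 10890 genes with 200 changed, the union comparison recovered 58.2% of 2-fold and 13.1% of 1.5-fold changes, with 2.78% false calls. The simulation gave all genes the same dispersion and held no trend on GC content or length, so these rates need not hold for the data. Counting intervals cover counting error only.

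The members and lists were chosen with earlier results of these data known. Genes with values in every library were named by a rule: the 13 mitochondrially encoded genes, the largest rise and fall past the threshold in each complex, cytochrome c and the isoform families; the other members named with values were chosen after their values were seen. The result of 1 member is not reported here, though counts and medians include it.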

Additional observations from a re-analysis of the deposited data

Results flagged for a closer look

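The diet difference was compared between Ly6Chi-like and Ly6Clo-like cells by the class by diet term in edgeR, and 38 members had a lower term in Ly6Chi-like cells while 0 had a higher one, where 3.22% of 9211 genes had a lower and 1.18% a higher term. With library totals 9 nuclear members and 1 mitochondrially encoded gene had a lower term, and 1 mitochondrially encoded gene a higher one. Among the 38 with TMM scaling, Cox4i1 was at 1220.0 and 1147 CPM on NCD and 850.4 and 793 on MCD in Ly6Chi-like cells. In Ly6Clo-like cells, scaled in a fit of their own, it was at 799.6, 774, 822 and 789. Its term was -0.54 ± 0.09 (adjusted p = 0.000163). Ndufa8, an accessory subunit of complex I, had a term of -0.90 ± 0.22 (adjusted p = 0.00661) and Ndufa11, another, of -0.85 ± 0.18 (adjusted p = 0.00164). With library totals 1 of the 29 accessory subunits of complex I had a lower term, so at most 1 of Ndufa8 and Ndufa11 kept its call.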

How the results depend on the processing

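In monocytes and macrophages, the nuclear members (12 higher, 44 lower) had 27 higher and 24 lower with library totals, 4 and 9 with a limit of 5% mitochondrial UMIs, and 1 higher in cells of 1000 to 5000 UMIs. The mitochondrially encoded genes, all 13 lower, had 2 lower at the 5% limit. Short subunits (1 higher, 34 lower) had 7 and 20 with library totals, 2 higher with the length trend removed, 9 lower at the 5% limit and 16 lower with short set at under 100 residues; 0 were higher at the 5% limit, in cells of 1000 to 5000 UMIs, with classes weighted equally, with the GC or shortest-transcript trend removed and without any single library. Longer subunits (11 higher, 9 lower) had 20 and 3 with library totals and 4 and 0 at the 5% limit. In cells of 1000 to 5000 UMIs they had 1 and 14. With the size limit at 100 or 120 residues, 27 or 17 of the longer subunits were lower. A change of the size limit moves genes between the short and the longer group, so these counts are of different sets of genes. Under 100 residues 16 of 20 tested subunits were lower, and under 150 residues 34 of 45. The cause of the other shifts was not tested.

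With library totals, higher and lower nuclear members numbered 24 and 29 in Ly6Chi-like, 10 and 12 in NK and innate lymphoid-like and 5 and 11 in interferon-activated-like cells; 21 were higher in Ly6Clo-like cells, and 11 and 7 were lower in liver endothelial-like and migratory dendritic-like cells. The class by diet term then had 9 nuclear and 1 mitochondrially encoded member lower. Thinning gave 0 higher and 13 lower in NK and innate lymphoid-like cells and 4 higher in migratory dendritic-like cells. Leaving out 1 library gave 4 to 8 higher in Ly6Chi-like cells; 0 to 10 higher, 0 to 26 lower and 0 to 13 mitochondrially encoded lower in Ly6Clo-like cells; 0 to 2 and 13 to 21 in NK and innate lymphoid-like cells; 1 to 2 and 11 to 28 in interferon-activated-like cells; 8 to 13 and 10 to 13 in liver endothelial-like cells; 3 to 6 and 7 to 10 in migratory dendritic-like cells; and 0 to 6 mitochondrially encoded genes with a lower class by diet term.

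The difference in mitochondrial share over retained cells, -3.92 percentage points, was -5.43 without a limit, -5.33 at 20%, -0.70 at 5%, -4.13 in Ly6Chi-like, -3.10 in NK and innate lymphoid-like and -3.40 in liver endothelial-like cells. The nuclear difference, -0.22, was -0.54 in Ly6Chi-like, -0.11 in Ly6Clo-like, -0.44 in NK and innate lymphoid-like, -0.45 in interferon-activated-like and -0.048 in liver endothelial-like cells. The log2 ratio difference, -0.90, was -1.11 without a limit, -1.13 at 20%, -0.13 at 5%, and -0.77, -1.01, -0.41, -0.81 and -0.75 in those 5 classes. The Spearman rho of 0.299 with transcript length was 0.303 with the shortest transcript.

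Single genes changed sign as follows: Cox4i1 to 0.11 with library totals, 0.41 at the 5% limit and 0.0056 with the length trend removed; Cox6a1 to 0.024 with the length trend removed; Cox7a2l to -0.36 with the GC trend removed; mt-Atp6 to 0.087 at the 5% limit; and mt-Atp8 to 0.16 and 0.72 with the length trend and with both trends removed. In cells of 1000 to 5000 UMIs Sdhb (0.16), Uqcrc1 (0.69), Atp5d (0.58) and Ndufaf4 (-0.53) did not pass.

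The correlation of same-numbered deviations was 0.000887 over 2 pairs. With 2 libraries per diet the deviations within a diet mirror each other, so this value cannot tell whether replicate numbers pair the libraries. With the replicate number as a block, 12 nuclear members were higher and 43 lower in monocytes and macrophages, and 2 were higher in NK and innate lymphoid-like cells. Depth limits the NCD libraries most: their union held 1404155 and 1464560 UMIs, against 17744585 and 19317160.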
